A study of Arabidopsis thaliana with 12 samples.

Results

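Callus is an unorganised mass of plant cells that keeps dividing, and it can arise in several ways. The comparison described here set the mean of 3 kinds of Arabidopsis thaliana callus against intact seedlings, and asked what callus of every kind had in common. All samples were of strain Col-0 and grew on solid MS medium. The seedlings were untreated wild-type plants of 14 days (n = 3 arrays). The first callus came from untreated plants carrying 35S:WIND1, in which the constitutive viral 35S promoter drives the AP2/ERF transcription factor WIND1, and which the labels call callus-like (n = 3). The second was callus of T87 cells, a long-established suspension line that is 1 cell line, wild type, on 500 nM of the auxin NAA (n = 3). The third was wild-type callus induced and kept with 500 µg/L of the auxin 2,4-D (n = 3). The comparison therefore used all 12 arrays of the series, 9 of callus and 3 of seedlings, and each array is labelled as a different plant or a different callus. The sources used here give no age for the calli. The seedlings and the 35S:WIND1 callus grew without auxin and the other calli with it, so in T87 and 2,4-D-induced callus auxin and callus cannot be told apart.

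Wounded Arabidopsis tissue forms callus through WIND1 and related factors that raise the response to cytokinin. On auxin-rich medium, callus of roots and aerial organs grows from pericycle-like cells and carries many features of a root tip. Established lines such as T87 have been kept as dividing cells for many transfers and have lost the organs of the plant they came from. A seedling is organised into leaves, a stem and roots, with guard cells, trichomes, a cuticle and vascular tissue, and callus is not organised into these organs. In bulk samples such as these, fewer cells of a type and less RNA per cell cannot be told apart.

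Each array gave a level for a gene as log2 of the background-subtracted signal minus the 75th percentile of that array, so a level of 0 is that percentile and 1 unit is a doubling. In sentences with 12 levels the order is seedlings, 35S:WIND1 callus, T87 callus, then 2,4-D-induced callus, with replicates 1 to 3 in each. Levels of different genes come from different probes and are not set against each other. Between 57.1% and 65.9% of spots were well above background on an array, and no spot was saturated. Arrays of a group correlated across genes at 0.986 to 0.991 in seedlings, 0.944 to 0.956 in 35S:WIND1 callus, 0.980 to 0.986 on T87 arrays and 0.977 to 0.986 with 2,4-D. The median SD of a gene between replicates was 0.11 log2 units in seedlings and 0.36 in 35S:WIND1 callus, the widest of the 4 groups. Per the file headers, each replicate number was 1 slide that held 1 array of every group, and each group lay in its own position on the slide, so position and group cannot be told apart.

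WIND1, the transgene of 1 of the calli, read 1.20, 1.37 and 1.22 in seedlings, 3.90, 3.20 and 3.62 in 35S:WIND1 callus, 2.50, 1.95 and 2.36 on T87 arrays, and 3.15, 2.74 and 2.70 with 2,4-D. All 9 callus arrays were above all 3 seedling arrays, and the 35S:WIND1 arrays were the highest. Its mean change was 1.64 log2 units (SE 0.17, adjusted p = 1.79e-05 by limma), with changes of 2.31, 1.01 and 1.60 in the 3 calli. The mean of WIND1 was thus at least 2-fold above the seedlings also in both calli that carry no transgene, in T87 callus only just. Changes in single calli were not tested.

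Of 21344 genes tested, 3263 (15.3%) were called higher and 5089 (23.8%) were called lower in the mean of the 3 calli, 39.1% in either direction. A gene was called at a limma p under 0.05 after Benjamini-Hochberg adjustment over all genes tested and a change of at least 2-fold in the mean. A gene was counted as shared by every callus if it was called and each of the 3 callus group means lay at least 2-fold from the seedling mean on the same side. By that count 1032 genes (4.84%) were shared rises and 2759 (12.9%) were shared falls, 17.8% of genes in all. Shared genes made up 31.6% of the genes called higher and 54.2% of those called lower. The 3 callus changes are measured from the same 3 seedling arrays, so their sameness is a description and carries no test.

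A median gene moved by 0.11 log2 units in the mean of the calli, and by 0.07, -0.0035 and 0.15 in 35S:WIND1, T87 and 2,4-D-induced callus. The median absolute change was 2.04 among called genes and 3.12 among shared genes, while the median SD among the 3 callus changes was 1.22 and 0.94. Changes of at least 8-fold in each callus were counted for 82 rises and 825 falls. The 9 callus arrays all lay above the 3 seedling arrays for 3890 genes (18.2%) and all below for 3879 (18.2%). Among shared genes, 3481 (91.8%) had callus and seedling arrays that did not overlap, against 5216 (62.5%) of all called genes.

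The calli also differed from each other. A moderated F-test among the 3 callus groups, which uses no seedling array in the comparison, passed for 16619 genes (77.9%), 2597 of them among the shared genes (68.5% of these). The other 1194 shared genes changed in every callus and did not pass the test of a difference among calli, which does not show that the calli were alike there. The range between callus groups was narrower than the mean change for 3042 shared genes (80.2%), against 4011 (48%) of all called genes. The rule for shared genes itself favours a narrow range, so the higher share is a description. The error behind the calls is the spread between replicates. When the spread between kinds of callus entered the error as well, in a fit of 9 callus against 3 seedling arrays, 1809 genes were called higher and 3169 lower, and 3522 of the 3791 shared genes were still shared.

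The balance of rises and falls depended on the scaling. With each array's median in place of its 75th percentile the median gene moved by 0.79, a shift of 0.68, and genes higher in callus went from 39.1% to 70.2% of those called and from 27.2% to 63.3% of those shared. Changes below are on the 75th percentile scale and are best read against the median gene at 0.11. With normexp background correction 1411 genes were called higher and 2395 lower, and 408 rises and 1396 falls were shared. That correction also added an offset of 50 to every signal, which by arithmetic makes log2 changes of dim genes smaller. Counts that leave out 1 array, and the slide as a block, moved less and are given at the end. Of 8202 called genes with values on every slide, 8182 had the same direction on all 3 slides. The calls were made on these same arrays, so that sameness largely follows from the calls and is no separate support.

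**Figure D1:**
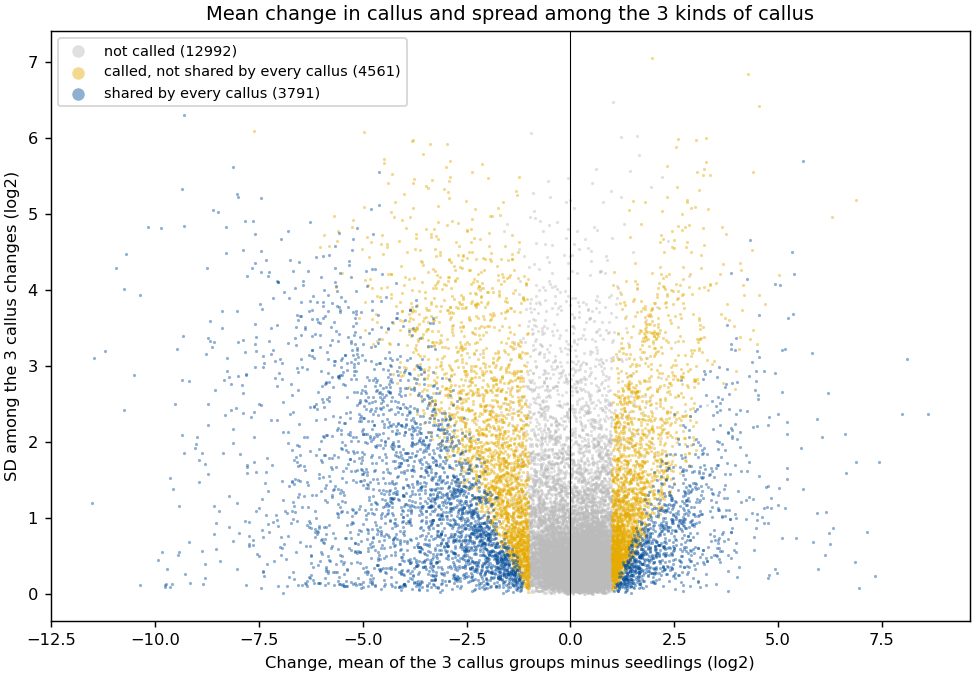
Each point is 1 of 21344 genes, with the mean change of the 3 callus groups from seedlings on the horizontal axis (log2) and the SD among the 3 callus changes on the vertical axis (log2). The 3791 genes shared by every callus reach further to the left, with 2759 falls against 1032 rises, and genes with a large spread among calli occur at every size of change.

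The leading shared rises, ranked by the smallest of the 3 callus changes among genes that carry a symbol and were well above background on all arrays, were PDF1.4, XTH11, NAC019, TH8, MPL1, AMY1, Rap2.6L, CYP81G1, CUC2, PA2, GLIP1 and BPS3. They rose by 3.79 to 7.43 log2 units in the callus mean. Only genes whose callus and seedling arrays did not overlap were ranked, for rises and falls, so that separation follows from the rule. Several have known roles in defence and stress: PDF1.4 encodes a plant defensin, MPL1 an aphid-induced lipase, GLIP1 a GDSL lipase of defence, PA2 a secreted peroxidase and NAC019 a stress-responsive NAC transcription factor. Rap2.6L is an AP2/ERF factor needed for shoot regeneration, and CUC2 a NAC factor of organ boundaries that also acts when shoots form from callus. XTH11 belongs to the enzymes that cut and rejoin xyloglucan, TH8 is a thioredoxin and AMY1 an alpha-amylase.

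PDF1.4 read -4.64, -4.27 and -4.15 in seedlings, 2.97, 1.99 and 3.08 in 35S:WIND1 callus, 2.64, 2.01 and 2.95 on T87 arrays, and 3.79, 2.92 and 1.06 with 2,4-D. No callus array came near the seedlings, and the 3 kinds of callus overlapped each other. The change was 6.95 log2 units (SE 0.49, adjusted p = 1.33e-06), or 124-fold, and its SD among the calli was 0.08.

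CUC2 read -3.93, -3.45 and -4.37 in seedlings, then 0.43, 1.04 and 0.42, then 1.08, 0.30 and 1.21, and then 0.72, 1.20 and 1.50 in the 3 calli. Every callus array lay more than 3 units above every seedling array. The change was 4.79 (SE 0.27, adjusted p = 3.18e-07), 27.8-fold, with an SD among calli of 0.26.

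Rap2.6L read -2.93, -2.78 and -2.62 in seedlings, 2.78, 1.94 and 2.00 in 35S:WIND1 callus, 3.42, 3.60 and 3.48 on T87 arrays, and 2.47, 2.17 and 1.97 with 2,4-D. It rose by 5.43 (SE 0.18, adjusted p = 2.17e-08), and here the calli did differ, T87 being highest (F-test adjusted p = 0.00056). NAC019 read -3.99, -3.52 and -3.71 in seedlings and between 1.25 and 3.44 on the 9 callus arrays, a change of 5.95 (SE 0.33, adjusted p = 3.17e-07) with an SD among calli of 0.34.

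Of the 12 leading rises, 4 passed the F-test among calli, which 77.9% of all genes passed. XTH11 had the widest spread of the 12, with an SD of 1.74: its mean change of 7.43 (SE 0.49, adjusted p = 9.22e-07) was largest in 2,4-D-induced callus, at 3.93, 3.72 and 3.58 against -5.46, -5.99 and -5.60 in seedlings. GLIP1 had the smallest, an SD of 0.04 around a change of 3.79 (SE 0.59, adjusted p = 0.000278), although its seedling arrays spread from -5.96 to -3.44. BPS3 also varied between seedling arrays, from -3.15 to -0.11, below 1.84 to 3.35 in callus. On single slides the changes of the 12 genes lay between 2.25 and 7.77, and with normexp correction the 12 rose by 1.79 to 4.81 and all were called.

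Among shared genes not well above background on any seedling array, CSLG2, a cellulose synthase-like gene, rose at least 43.8-fold (adjusted p = 1.15e-07). It read -8.34, -8.14 and -8.34 in seedlings, with callus arrays from -1.49 to 0.12. ELI3-2, a pathogen-induced alcohol dehydrogenase, rose at least 36.0-fold, and COR27, a cold-regulated gene tied to the clock, at least 34.0-fold (adjusted p = 1.75e-05 and 2.64e-06). These bounds depend on the background treatment, which for normexp correction includes the offset of 50. With normexp correction the fitted changes were 2.04 log2 units for CSLG2 and 1.81 for COR27, and the call of ELI3-2 ended, at 1.61 and an adjusted p of 0.125. Where a callus group was well above background on only some of its arrays, the fold of a fall is called estimated and is not a limit. The text gives 18 genes by such bounds or estimates. With normexp correction the fitted fold was below the value given in all 18, between 3.05-fold and 377-fold. Some falls given as log2 changes also include a callus group with only some arrays well above background, and are not exact either. Such genes are CA1, CASP1, PDF2, SMR1 and SWEET11, with normexp changes of -7.45, -3.81, -3.85, -3.59 and -4.09.

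The leading shared falls described here, ranked in the same way, were MLP43, CDEF1, MLP328, DGR2, EXPA11, PAR1, ATSPS4F, NDA1, LURP1, FLS1 and OPT7, with changes of -7.78 to -4.66 log2 units. CDEF1 is a cutinase, EXPA11 an expansin that loosens walls, DGR2 a wall protein of the DUF642 family, and MLP43 and MLP328 are major latex proteins. PAR1 is a helix-loop-helix repressor of shade and auxin responses, ATSPS4F a sucrose phosphate synthase, NDA1 a mitochondrial NAD(P)H dehydrogenase, LURP1 a gene of defence against downy mildew, FLS1 a flavonol synthase and OPT7 an oligopeptide transporter.

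MLP43 read 4.59, 4.54 and 4.48 in seedlings, -3.13, -1.68 and 0.81 in 35S:WIND1 callus, -3.47, -4.81 and -3.70 on T87 arrays, and -5.04, -4.32 and -3.87 with 2,4-D. The highest callus array, the third of 35S:WIND1, was still far below the lowest seedling array. The change was -7.78 (SE 0.66, adjusted p = 4.5e-06), 220.4-fold lower in callus.

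ATSPS4F read 2.92, 3.02 and 2.74 in seedlings, and its callus arrays lay between -2.98 and -1.10. It fell by 4.91 (SE 0.41, adjusted p = 3.97e-06), and the calli spread by an SD of 0.31. It did not pass the F-test among calli.

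LURP1 was the most even of the 11, with an SD among calli of 0.18 around a fall of 4.77 (SE 0.32, adjusted p = 1e-06), and the mean of its probes fell by 7.0. NDA1 was uneven: its arrays lay between 3.56 and 3.77 in seedlings, between -2.22 and -0.23 in 35S:WIND1 and T87 callus, and between -3.97 and -3.41 in 2,4-D-induced callus. The F-test passed for 7 of the 11, beside 77.9% of all genes. On single slides the 11 changes ran from -8.47 to -4.07, and with normexp correction from -6.27 to -3.15, all 11 called.

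Genes that fell below background on all 9 callus arrays were led by SAUR63, an auxin-responsive small gene of elongating organs, MSRB6, a methionine sulfoxide reductase, and RGF9, a secreted root growth factor peptide. SAUR63 read 1.40, 1.47 and 1.85 in seedlings, and it was not well above background in any callus. It was at least 287.1-fold lower (adjusted p = 1.55e-08), MSRB6 at least 235.6-fold and RGF9 at least 219.7-fold (adjusted p = 4.82e-09 for both). Such genes numbered 239. They entered the test only through the seedling arrays, so their direction follows from the filter. In the other direction 664 genes called higher were not well above background on any seedling array and entered only through callus arrays.

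**Figure D2:**
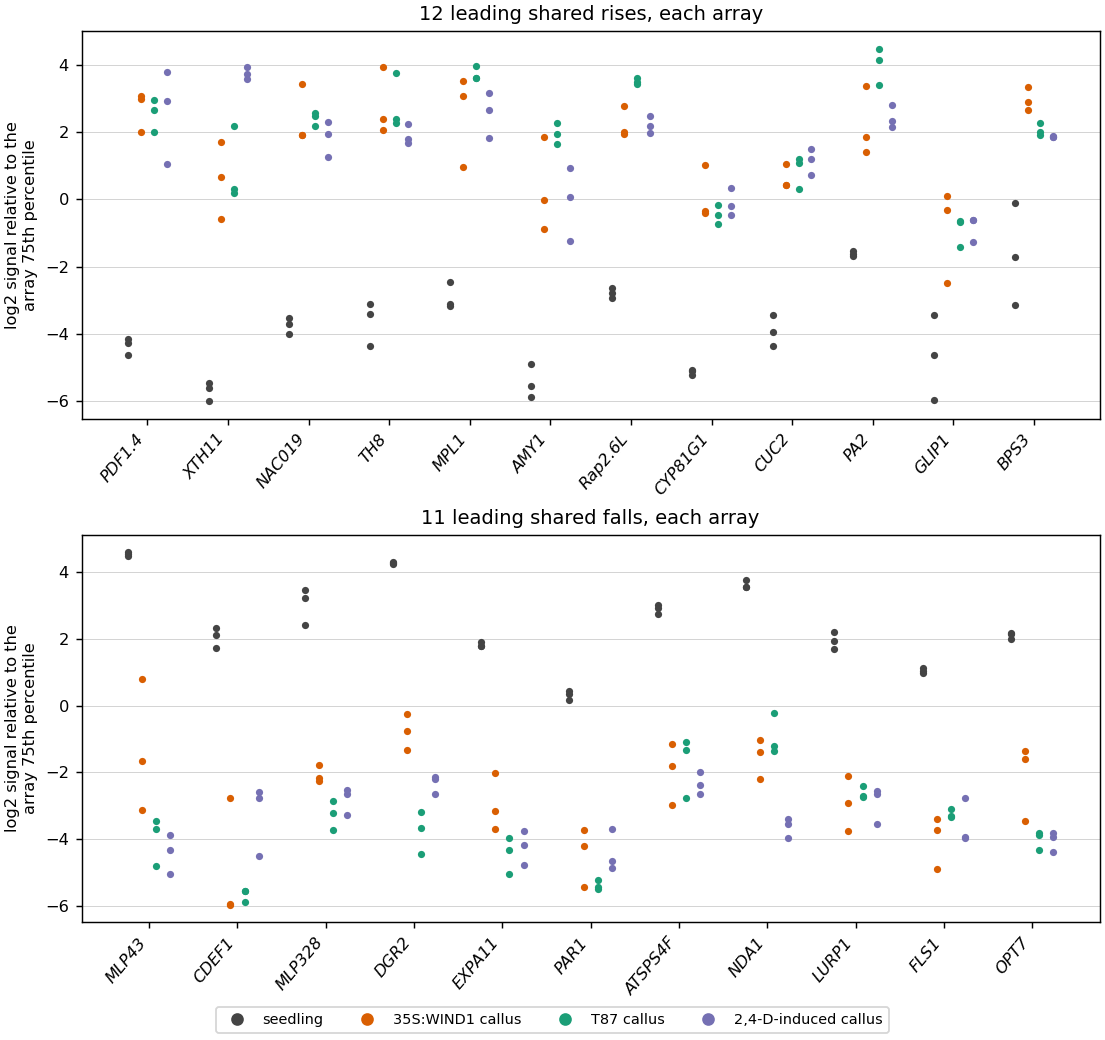
Each dot is the level on 1 array (log2 signal relative to the array 75th percentile) of the 12 leading shared rises in the upper panel and 11 leading shared falls in the lower panel, coloured by group. In all 23 genes the 9 callus arrays lie apart from the 3 seedling arrays, which was a condition of the ranking. MLP43 in 35S:WIND1 callus has the widest spread between replicates of the falls, from -3.13 to 0.81.

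Some genes moved by nearly the same amount in every callus. Among called genes with a symbol and a change of at least 2 log2 units, measured on all arrays, those with the smallest SD among calli were GLIP1, AGP10, NHX4, ASN2 and GLR3.4. AGP10, an arabinogalactan protein of the cell surface, read 1.01, 0.84 and 1.41 in seedlings and between 3.25 and 3.93 in callus. Its change was 2.51 (SE 0.18, adjusted p = 1.42e-06) with an SD of 0.07. ASN2, an asparagine synthetase, read 2.45, 2.36 and 2.45 in seedlings, with callus arrays from -0.29 to 0.55. It fell by 2.29 (SE 0.17, adjusted p = 1.66e-06) with an SD of 0.07. NHX4, a vacuolar cation exchanger, fell by 2.09 and GLR3.4, a glutamate receptor-like channel, by 2.06 (adjusted p = 1.89e-06 and 2.2e-05).

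All genes of the photosynthesis lists were called lower in the callus mean, and most of them lay lower in every kind of callus. The counts of these and all later lists stand beside 15.3% of all genes called higher and 23.8% called lower. Shared rises were 4.84% of all genes and shared falls 12.9%. Of 39 genes of light harvesting and the photosystems, all 39 were called lower (23.8% of all genes tested) and 38 were shared falls (12.9% of all genes), with a median change of -3.56. All 24 genes of the Calvin cycle and photorespiration were called lower, 20 of them shared, at a median of -4.07. All 22 genes of chlorophyll synthesis and chloroplast regulation were called lower, 16 shared, at -2.62. With array median scaling 28, 16 and 11 genes of the 3 lists were shared falls. The size depended on the callus: the light harvesting median was -2.59 in 35S:WIND1 callus, -2.29 on T87 arrays and -5.70 with 2,4-D. The F-test among calli passed for all 39, and for 77.9% of all genes.

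LHCB4.2, a minor antenna protein of photosystem II, read 6.81, 7.07 and 6.87 in seedlings, 2.66, 3.1 and 3.82 in 35S:WIND1 callus, 2.72, 2.12 and 2.54 on T87 arrays, and 0.95, 0.99 and -0.44 with 2,4-D. No callus array approached the seedlings, and 2,4-D-induced callus was lowest. It fell by 4.87 (SE 0.32, adjusted p = 9.37e-07). PSAD-2, a subunit of photosystem I, fell by 4.39 (SE 0.29, adjusted p = 9.34e-07).

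RBCS2B, a small subunit of Rubisco, read 7.11, 7.48 and 7.13 in seedlings, -0.05, -0.94 and 2.77 in 35S:WIND1 callus and -2.79, -4.36 and -4.19 in T87 callus. It was not well above background on any 2,4-D-induced array, and in the mean of the calli it was at least 1402-fold lower (adjusted p = 5.35e-07). RBCS2B has near-identical copies in the genome, and its probe may bind their transcripts too. CA1, the chloroplast carbonic anhydrase, was well above background on 2 of the 3 arrays of 2,4-D-induced callus. It fell by 9.65 (SE 0.48, adjusted p = 1.84e-07).

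GLK1, a transcription factor that drives chloroplast development, read 2.67, 2.83 and 2.78 in seedlings, -3.83, -3.67 and -0.21 in 35S:WIND1 callus and -3.49, -3.06 and -3.42 in T87 callus. It was not well above background in 2,4-D-induced callus, and it was at least 117.6-fold lower in the mean of the calli (adjusted p = 4.3e-06). PORA, the light-sensitive protochlorophyllide reductase of greening tissue, was an estimated 27.8-fold lower (adjusted p = 2.11e-06). It was well above background on 1 of 3 arrays of 35S:WIND1 callus and on none of the other calli. Its call ended with normexp correction, at a change of -1.99 and an adjusted p of 0.116.

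Light perception did not follow photosynthesis as a group: of 23 genes of light signalling and photoreceptors, 2 were called higher and 5 lower, 4 of them shared falls, at a median of -0.37 that turned to 0.31 with array median scaling. Both phototropins, the blue light receptors of directional growth, were among the shared falls. PHOT2 read 4.17, 4.30 and 4.13 in seedlings, and its callus arrays lay between -0.70 and 2.59. It fell by 3.83 (SE 0.30, adjusted p = 2.59e-06) by its brightest probe and by 2.23 in the mean of its probes. PHOT1 fell by 4.57 (SE 0.34, adjusted p = 1.72e-06).

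Of 17 circadian clock genes 6 were called higher (15.3% of all genes) and 3 lower, and 5 rises (4.84% of all genes) and 1 fall were shared. PRR5, an evening repressor of the clock, read -4.41, -4.87 and -4.12 in seedlings, -2.48, -0.84 and -2.68 in 35S:WIND1 callus, -0.13, -0.23 and -0.17 on T87 arrays, and 0.29, -0.21 and -0.95 with 2,4-D. It rose by 3.64 (SE 0.38, adjusted p = 1.76e-05), and LUX, of the evening complex, by 1.84 (SE 0.24, adjusted p = 8.28e-05). CCA1, a morning factor, fell by 1.77 (SE 0.17, adjusted p = 1.07e-05), from 3.15 to 3.43 in seedlings to 0.91 to 2.41 in callus. The time of harvest was not given in the sources used here, so time of day and group cannot be told apart, and without the second array of 35S:WIND1 callus 3 rises in place of 5 were shared.

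Of 32 starch and sucrose genes 7 were called higher (21.9%, against 15.3% of all genes) and 9 lower (28.1%, against 23.8%), with 3 shared rises and 6 shared falls. The median of -0.27 was 0.40 with array median scaling, and with the spread among calli in the error 3 genes were called higher. STP13, a hexose importer of stressed and starved cells, rose by 3.88 (SE 0.26, adjusted p = 8.75e-07) from between -2.65 and -1.51 in seedlings to between 0.81 and 2.96 in callus. APL1, a large subunit of the starch enzyme ADP-glucose pyrophosphorylase, fell by 4.99 (SE 0.26, adjusted p = 2.37e-07). SWEET11, a sucrose exporter of the phloem, fell by 5.90 (SE 0.80, adjusted p = 0.000101), with 2 of 3 arrays of 2,4-D-induced callus well above background.

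Of 13 genes of hypoxia and fermentation 9 were called higher (69.2%, against 15.3% of all genes) and 7 were shared rises (53.8%, against 4.84%). None was called lower, and the median was 2.60. HRE2, an ERF factor of low oxygen, read -3.08, -4.50 and -1.65 in seedlings and between -0.60 and 0.90 on the callus arrays. The change was 3.12 (SE 0.51, adjusted p = 0.000356) with an SD among calli of 0.10, despite the spread of the seedling arrays. ADH1, alcohol dehydrogenase, read 0.89, 1.14 and 0.01 in seedlings, 2.08, 4.96 and 3.47 in 35S:WIND1 callus, 5.34, 5.40 and 5.30 on T87 arrays, and 5.65, 6.01 and 5.88 with 2,4-D. It rose by 4.22 (SE 0.48, adjusted p = 2.97e-05), less in 35S:WIND1 callus than in the others (F-test adjusted p = 0.0093).

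Regulators of callus and regeneration rose in part, and differently in each callus. Of 32 genes tested 18 were called higher and 5 lower, but 7 were shared rises, none was a shared fall, and 12 lay at least 2-fold above the seedlings in 1 callus and 2-fold below in another. WIND1, the transgene of 1 of the calli, was among the 18 and the 7, so these counts are not independent of the construct. The names WIND2, WIND3 and WIND4 were not matched and are absent. The median was 1.30, or 0.98 with genes below background at their bound, and 0.64, 0.63 and 3.15 in 35S:WIND1, T87 and 2,4-D-induced callus. Without 1 of the seedling arrays, 2 or 3 genes were called lower in place of 5. With the spread among calli in the error 6 were called higher. Of the 32 genes 5 were not well above background on any seedling array and entered only through callus arrays. Of the 14 measured on all 12 arrays 9 were called higher and none lower, and 6 rises were shared, WIND1 again among them.

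ESR1, an AP2/ERF factor that promotes shoot regeneration, was well above background on 2 of 3 seedling arrays. It read -5.80, -4.87 and -6.64 there, 2.20, 2.18 and 1.48 in 35S:WIND1 callus, 2.03, 2.23 and 2.26 on T87 arrays, and -0.64, -1.69 and -2.40 with 2,4-D. All callus arrays were above the seedlings, and 2,4-D-induced callus was lowest of the calli. The change was 6.62 (SE 0.40, adjusted p = 5.58e-07). CUC2, described above, was also in this list.

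Hormone response genes, like most genes tested, differed by kind of callus. Of 24 auxin response genes 5 were called higher (20.8%, against 15.3% of all genes) and 10 lower (41.7%, against 23.8%), 1 and 7 of them shared. The median was -0.73, and the medians by callus were -1.65, -1.80 and 0.94. The F-test among calli passed for 21 of the 24, beside 77.9% of all genes. With array median scaling 9 were called higher and 8 lower, at a median of -0.05. SAUR15, an early auxin-induced gene, was an estimated 53.5-fold lower (adjusted p = 4.33e-07), well above background on 1 of the 9 callus arrays.

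Of 33 cytokinin genes 2 were called higher (6.06%, against 15.3% of all genes) and 19 lower (57.6%, against 23.8%), 2 and 6 of them shared. The median was -1.20, and all 33 passed the F-test among calli, as did 77.9% of all genes. By callus the medians were -1.02, -1.52 and 0.60, and 10 of the 33 genes lay 2-fold above the seedlings in 1 callus and 2-fold below in another. LOG1, which activates cytokinins, fell by 4.90 (SE 0.49, adjusted p = 1.27e-05) from between 1.57 and 1.73 in seedlings to between -5.44 and -0.37 in callus. CRF6, a cytokinin response factor, rose by 2.20 (SE 0.26, adjusted p = 3.71e-05). With normexp correction 5 genes of this list were called lower, and with the spread among calli in the error also 5. Of the 22 measured on all 12 arrays 9 were.

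Most genes of the division cycle were not called. Of 21 DNA replication genes 5 were called higher (23.8%, against 15.3% of all genes), and of 25 mitosis genes 2 (8.0%). None of these 2 lists was called lower, against 23.8% of all genes. Of 23 genes of cell cycle entry and its inhibitors 2 were called higher (8.7%) and 5 lower (21.7%). No replication or mitosis gene was a shared rise or a shared fall. The medians were 0.18, 0.27 and -0.14 beside 0.11 for all genes. By callus the replication median was -0.40, 1.38 and -0.15, and the mitosis median -0.31, 0.84 and 0.41. With array median scaling 10 replication and 11 mitosis genes were called higher. SMR1, an inhibitor of cyclin-dependent kinases, was a shared fall of 5.0 (SE 0.53, adjusted p = 1.85e-05), with 2 of 3 arrays of 2,4-D-induced callus well above background.

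Among 23 ribosome and nucleolus genes 2 were called higher and none lower, at a median of 0.36, and none was shared. Of 33 Polycomb and DNA methylation genes 8 were called higher (24.2%, against 15.3% of all genes) and 2 lower (6.06%, against 23.8%). The median was 0.42, with 1 shared fall and no shared rise. With array median scaling 13 of the former and 18 of the latter were called higher. Of 15 housekeeping genes none was called higher and 2 were called lower, at a median of -0.13, and 0.55 with array median scaling. TUB6, a beta-tubulin, was the shared fall among them, from between 2.79 and 3.00 in seedlings to between 0.46 and 1.88 in callus. It fell by 1.56 (SE 0.11, adjusted p = 1.05e-06), and by 0.88 with array median scaling, under 2-fold.

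**Figure D3:**
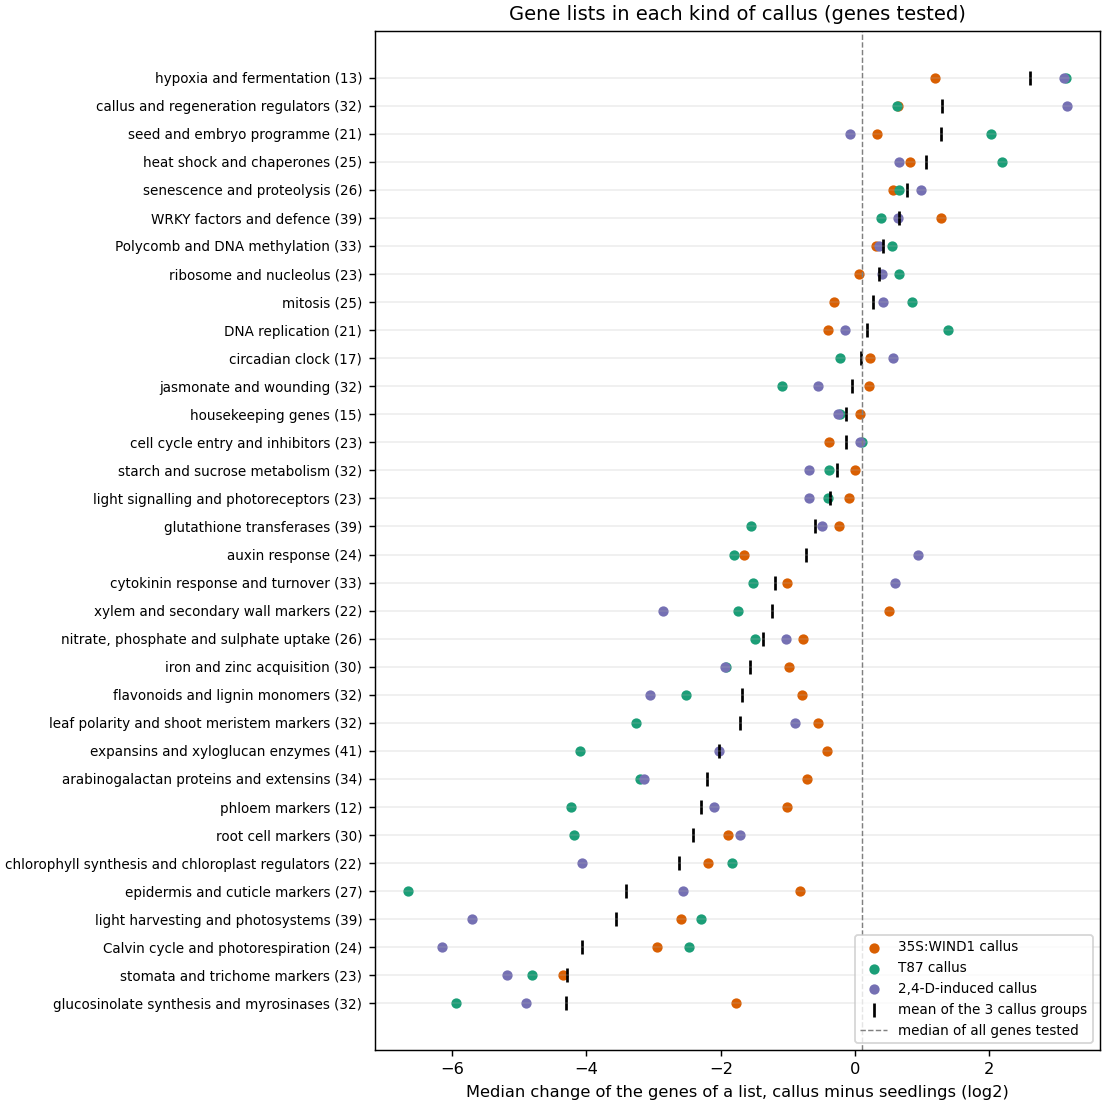
For each of 34 gene lists (genes tested in brackets) the dots give the median change from seedlings (log2) in each callus and the black bar the median change of the callus mean, and the dashed line is the median of all genes tested, 0.11. Photosynthesis, glucosinolate and stomatal lists lie left of the line in every callus, hypoxia genes right of it, and the auxin and xylem lists have dots on both sides.

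Most wall proteins of the lists examined were called lower. Of 41 expansins and xyloglucan enzymes 3 were called higher and 25 lower, 1 and 15 of them shared, at a median of -2.03. Of 34 arabinogalactan proteins and extensins 2 were called higher and 26 lower, 1 and 14 shared, at -2.21. In both lists 35S:WIND1 callus moved least, with medians of -0.42 and -0.72, against -4.10 and -3.21 in T87 callus. With the spread among calli in the error 15 of the first and 14 of the second were called lower, and without the second seedling array 1 gene of the first was called higher in place of 3. Of the 23 and 21 genes measured on all 12 arrays 11 and 15 were called lower.

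EXPA5, an expansin of growing leaves and stems, read 2.53, 2.49 and 2.59 in seedlings, -5.42, -6.73 and -5.15 in 35S:WIND1 callus and -5.45, -5.13 and -5.50 in T87 callus. It was well above background on 2 of 3 arrays of 35S:WIND1 callus and on none of 2,4-D-induced callus. In the mean of the calli it was an estimated 337.7-fold lower (adjusted p = 1.61e-08). FLA8, a fasciclin-like arabinogalactan protein, fell by 3.95 (SE 0.20, adjusted p = 2.22e-07), with an SD among calli of 0.31. XTH23 was the shared rise of its list, 3.86 (SE 0.22, adjusted p = 3.8e-07), from between -1.95 and -1.47 in seedlings to between 1.13 and 3.26 in callus, and AGP10 was that of the arabinogalactan list. XTH11, a leading shared rise described above, is a xyloglucan enzyme that the list does not hold.

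Genes of secondary metabolism were mostly lower in the callus mean. Of 32 genes of glucosinolate synthesis and myrosinases, the mustard oil defence of the cabbage family, none was called higher, 29 were called lower and 21 were shared falls. Their median was -4.30, with -1.77, -5.94 and -4.90 by callus. Of the 14 measured on all 12 arrays 12 were called lower and 6 were shared, at a median of -1.94. TGG2, a myrosinase of guard cells and phloem-associated cells, read 4.58, 5.16 and 4.77 in seedlings, and -5.48, -4.20 and 0.31 in 35S:WIND1 callus. It was well above background on 1 of the 6 arrays of the other calli, and an estimated 1432-fold lower in the callus mean (adjusted p = 6.45e-06). ESP, which directs myrosinase products to nitriles, was at least 328.1-fold lower (adjusted p = 2.12e-07).

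Of 32 flavonoid and lignin monomer genes 3 were called higher and 18 lower, 1 and 11 shared, at a median of -1.68. TT4, chalcone synthase and the entry to flavonoids, was an estimated 211.4-fold lower (adjusted p = 7.95e-07). In T87 and 2,4-D-induced callus it was well above background on 1 of 6 arrays. CAD5, a cinnamyl alcohol dehydrogenase of lignin synthesis, was the shared rise: it read 2.79, 2.58 and 2.66 in seedlings and between 3.31 and 5.01 in callus. It rose by 1.78 (SE 0.29, adjusted p = 0.000335).

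Nutrient uptake genes were called lower more often than higher. Of 26 genes of nitrate, phosphate and sulphate uptake 5 were called higher and 14 lower, 3 and 10 shared, at a median of -1.37. AMT1;2, an ammonium importer of root cortex, read 2.68, 2.80 and 2.68 in seedlings and -3.18, -3.06 and -2.84 in 35S:WIND1 callus. It was not well above background in T87 or 2,4-D-induced callus, and at least 274.7-fold lower in the mean (adjusted p = 4.82e-09). NRT2.5, a nitrate importer of starved roots, rose by 4.36 (SE 0.49, adjusted p = 2.95e-05), from -5.60, -4.71 and -5.59 in seedlings to 2.04, 2.55 and 2.88 in T87 callus and to between -4.40 and -1.55 in the other calli.

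Of 30 iron and zinc genes 4 were called higher and 16 lower, none and 13 shared, at a median of -1.57. FIT, the regulator of iron uptake in the root epidermis, was an estimated 94.2-fold lower (adjusted p = 3.78e-08), well above background on 1 of 9 callus arrays. With normexp correction 8 genes of this list were called lower, and among the genes measured on all 12 arrays 3 were, at a median of 0.32.

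Stress and defence lists held rises and falls side by side. Of 39 WRKY and defence genes 15 were called higher (38.5%, against 15.3% of all genes) and 7 lower (17.9%, against 23.8%). Of these 8 and 3 were shared, and the list median was 0.66. WRKY18, a WRKY factor of pathogen responses, read 0.55, 0.41 and 0.62 in seedlings, and its callus arrays lay between 3.16 and 4.64. It rose by 3.16 (SE 0.15, adjusted p = 1.3e-07), and WRKY45 by 3.85 (SE 0.36, adjusted p = 9.05e-06). PR5, a pathogenesis-related protein of the salicylate response, was an estimated 42.6-fold lower (adjusted p = 2.03e-05). In T87 and 2,4-D-induced callus it was well above background on 1 of 6 arrays.

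Of 32 jasmonate and wounding genes 9 were called higher (28.1%, against 15.3% of all genes) and 11 lower (34.4%, against 23.8%). Of these 5 and 8 were shared. The list median was -0.04, and 0.64 with array median scaling. JAZ1, a repressor that the jasmonate response itself induces, read -0.75, -0.99 and -0.73 in seedlings, and its callus arrays lay between 1.39 and 2.13. It rose by 2.58 (SE 0.10, adjusted p = 4.11e-08) with an SD among calli of 0.25. With normexp correction 5 genes of this list were called higher and 6 lower.

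Of 25 heat shock and chaperone genes 13 were called higher and none lower, 7 shared, at a median of 1.06, with 2.19 in T87 callus and 0.81 and 0.66 in 35S:WIND1 and 2,4-D-induced callus. HSP23.6-MITO, a small mitochondrial chaperone, was not well above background in seedlings, and rose at least 21.5-fold in the mean (adjusted p = 1.63e-06). Its arrays lay between 1.16 and 1.56 in T87 callus, and between -5.15 and -1.49 in the other calli. With the spread among calli in the error 5 genes of this list were called higher, and with normexp correction 8, of which 1 was shared. Of the 25 genes 3 were not well above background on any seedling array and entered only through callus arrays. Of the 18 measured on all 12 arrays 7 were called higher, 2 of them shared.

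Of 39 glutathione transferases 6 were called higher (15.4%, against 15.3% of all genes) and 17 lower (43.6%, against 23.8%). Of these 3 and 11 were shared. The list median was -0.59, and 0.09 with array median scaling. GSTU11 rose by 5.16 (SE 0.63, adjusted p = 4.83e-05), with 2 of 3 seedling arrays well above background. GSTU22 fell by 4.22 (SE 0.35, adjusted p = 3.64e-06). Of 26 senescence and proteolysis genes 9 were called higher and none lower, 4 shared, at a median of 0.78. CEP1, a cysteine endopeptidase of dying cells, rose by 4.10 (SE 0.46, adjusted p = 3.05e-05), from between -1.91 and -0.98 in seedlings to between 0.34 and 4.80 in callus.

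**Figure D4:**
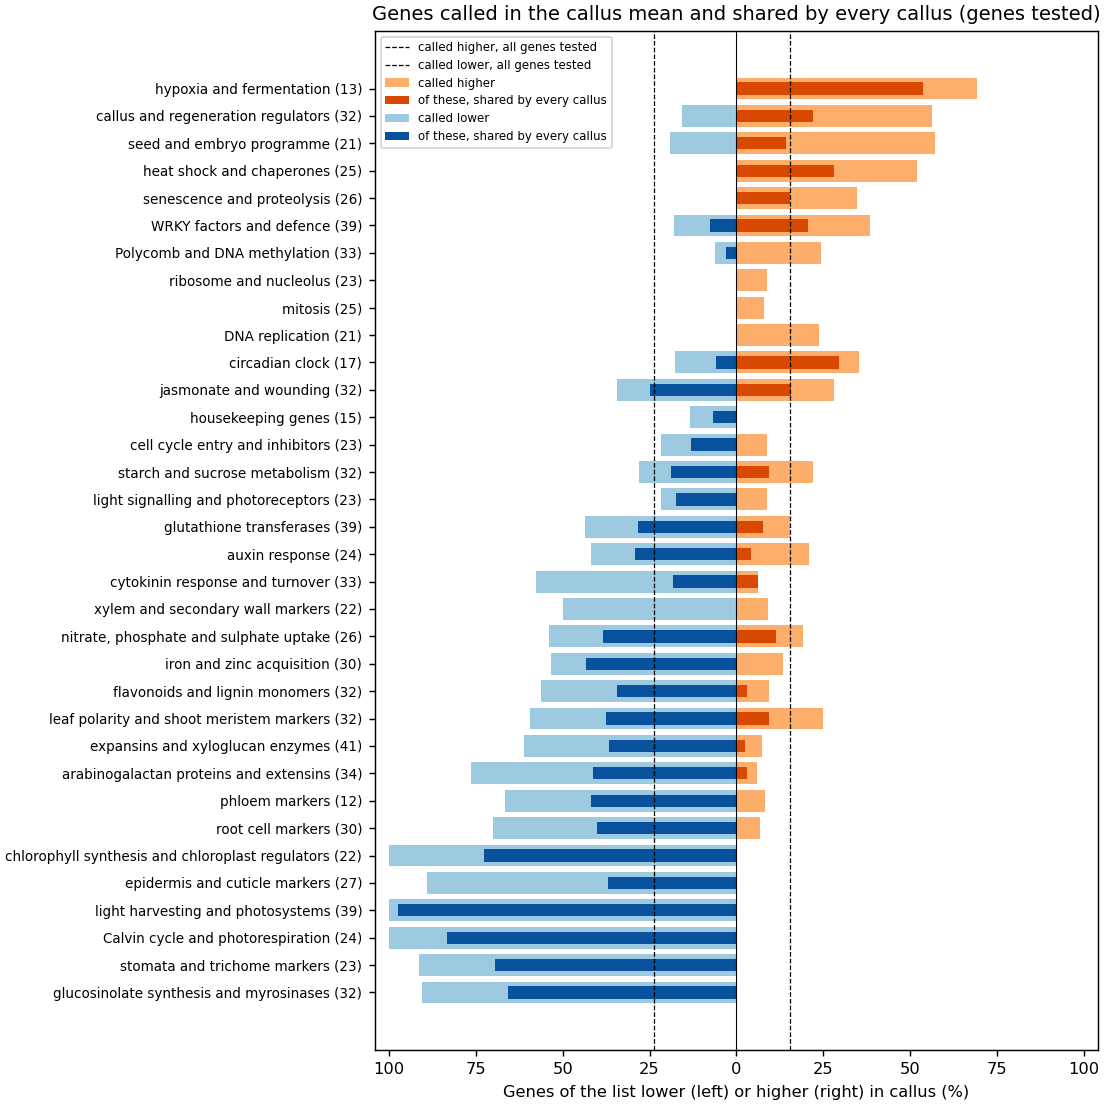
For each of 34 gene lists the light bars give the percentage of its tested genes (number in brackets) called lower (left) or higher (right) in the callus mean, the dark bars inside them the percentage shared by every callus, and the dashed lines the percentages over all genes, 23.8% and 15.3%. The light harvesting list is called lower in full and almost fully shared, with 38 of 39, while the xylem list has 11 of 22 called lower and none shared.

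Markers of differentiated cells were called lower in differing numbers by tissue. Of 23 stomata and trichome markers none was called higher, 21 were called lower and 16 were shared, at a median of -4.29, and at -4.35, -4.81 and -5.18 by callus. Only 3 of the 23 were measured on all 12 arrays, and 1 of these was called lower and none shared, so its counts rest on genes not well above background on some array. Of 27 epidermis and cuticle markers none was called higher and 24 were called lower, but 10 were shared, at medians of -0.82, -6.66 and -2.56 by callus. Of the 17 measured on all 12 arrays 14 were called lower and 3 shared. Of 12 phloem markers 1 was called higher and 8 lower, 5 shared falls, at a median of -2.29. Of 22 xylem and secondary wall markers 2 were called higher and 11 lower, none shared in either direction, at medians of 0.50, -1.74 and -2.86. Without the first array of 35S:WIND1 callus 3 xylem markers were shared falls.

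Of 30 root cell markers 2 were called higher and 21 lower, none and 12 shared, at a median of -2.41, and 11 lay on opposite sides of the seedlings in different calli. Of the 10 measured on all 12 arrays 5 were called lower and 3 shared. CASP1, a Casparian strip protein, read 0.89, 0.64 and 0.71 in seedlings and between -6.90 and -4.21 in callus, where 6 of 9 arrays were well above background. It fell by 6.38 (SE 0.48, adjusted p = 1.87e-06). PDF2, a homeodomain factor of the epidermal layer, fell by 5.53 (SE 0.51, adjusted p = 7.75e-06), with 1 of 3 arrays of T87 callus well above background. In the fit with the spread among calli in the error 8 epidermis, 4 phloem, 10 root and no xylem markers were called lower. With normexp correction 7 stomata and trichome markers and 7 root markers were called lower.

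Of 32 leaf polarity and shoot meristem genes 8 were called higher and 19 lower, 3 and 12 shared, at a median of -1.72. KNAT6, a class I KNOX homeobox gene of the shoot meristem, read -1.24, -1.24 and -1.39 in seedlings, 0.96, 1.39 and 0.47 in 35S:WIND1 callus, 0.67, 0.42 and 0.41 on T87 arrays, and 1.51, 1.48 and 1.49 with 2,4-D. It rose by 2.27 (SE 0.16, adjusted p = 1.43e-06). PHV, an HD-ZIP III factor of the upper leaf side and meristem, rose by 1.88 (SE 0.25, adjusted p = 8.19e-05). Without the first array of 35S:WIND1 callus 1 rise in place of 3 was shared. With normexp correction 7 genes were called lower, and among genes measured on all 12 arrays 6 were, at a median of 0.74.

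Of 21 genes of the seed and embryo programme 12 were called higher and 4 lower, 3 of the rises and none of the falls shared, at a median of 1.28, or 0.94 with genes below background at their bound. By callus the medians were 0.32, 2.02 and -0.08. Of the 21 genes 6 were not well above background on any seedling array and entered only through callus arrays. Without the filter on dim probes the list median was 0.57. Of the 9 genes measured on all 12 arrays 5 were called higher and 2 lower, and 2 rises were shared. DGAT1, which makes storage oil, rose by 1.39 (SE 0.23, adjusted p = 0.00044), from between -2.16 and -1.70 in seedlings to between -1.20 and 0.06 in callus. Without the second seedling array 1 rise was shared, with normexp correction none was and 2 were called higher, and with the spread among calli in the error 2 were called higher.

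For some genes the mean of the calli described none of them. At least 2-fold above the seedlings in 1 callus and at least 2-fold below in another were 1578 genes, 1571 of which passed the F-test among calli and 436 of which were called in the mean. Among genes with a symbol, not called in the mean and measured on all arrays, the widest ranges between calli belonged to ARD3, LTP2, KTI1, STY2 and ACO1. ARD3, a dioxygenase of the methionine cycle, read -2.23, -2.46 and -2.42 in seedlings, -5.98, -2.65 and -1.87 in 35S:WIND1 callus, -5.44, -3.46 and -5.32 on T87 arrays, and 5.16, 5.53 and 5.69 with 2,4-D. The mean change of 1.44 (adjusted p = 0.108) joined a high level in 1 callus with lower mean levels in the other two. Its call was sensitive: without the first array of 35S:WIND1 callus ARD3 was called, at a change of 1.86. LTP2, a lipid transfer protein of the epidermis, read between 0.13 and 0.39 in seedlings, between 5.60 and 6.21 in 35S:WIND1 callus, between -5.17 and -0.94 on T87 arrays and between 2.39 and 2.85 with 2,4-D.

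Some embryo and meristem regulators were of this kind, and BBM and STM are named because the rule picks members with opposite changes. Genes at least 2-fold above the seedlings in 1 callus and 2-fold below in another were 12 of 32 in the callus and regeneration list. They were 4 of 32 in the leaf polarity and shoot meristem list and 4 of 21 in the seed and embryo list. Other regulators, such as CUC2, ESR1 and KNAT6, rose in every callus. BBM, an AP2 factor that induces embryos, read -3.30, -3.71 and -2.52 in seedlings, -8.71, -8.34 and -6.16 in 35S:WIND1 callus, -5.87, -5.69 and -6.18 on T87 arrays, and 2.07, 2.66 and 2.65 with 2,4-D. It was above the seedlings in the last and below them in the others, where 1 of 3 arrays of 35S:WIND1 callus was well above background. STM, the KNOX gene that maintains the shoot meristem, read -0.83, -0.47 and -0.90 in seedlings, 3.17, 3.58 and 2.16 in 35S:WIND1 callus, -6.03, -8.46 and -8.28 on T87 arrays, and -1.66, -0.91 and -1.90 with 2,4-D. The F-test gave adjusted p = 5.4e-07 for BBM and 8.5e-07 for STM, while the mean changes were -0.55 (adjusted p = 0.319) and -1.30 (adjusted p = 0.0386). In T87 callus STM was well above background on 1 of 3 arrays. The call of STM in the mean ended without any 1 of the 3 seedling arrays, the third of 35S:WIND1 callus, the second or the third of T87 callus, or the first or the third of 2,4-D-induced callus, at changes from -1.39 to -1.16.

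WOX5, a homeobox gene of the root stem cell niche, was higher in 35S:WIND1 and 2,4-D-induced callus, with arrays from -1.28 to 1.88, than in seedlings at -4.52, -4.96 and -2.07, and lower in T87 callus at -6.02, -5.55 and -5.66. FUS3, a B3 factor of seed maturation, read between 0.81 and 1.62 in T87 callus, between -4.56 and -4.38 in seedlings and between -5.67 and -4.55 in the other calli. SDC, an F-box gene normally silenced by DNA methylation, read 3.82, 3.82 and 3.46 in T87 callus. It was not well above background in the other calli, and in seedlings it was so on 1 array, with 1 outlier spot left out. The mean change of SDC was 1.96 in the main fit. It was 0.01 (adjusted p = 0.995 by limma) with the deposited values, from which no outlier spots were taken here. XCP1, a protease of forming xylem vessels, was higher in 35S:WIND1 callus (5.33, 2.37 and 2.47) than in seedlings (1.09, 0.83 and 1.02), and lower in T87 callus (between -3.13 and -2.83) and 2,4-D-induced callus (between -5.14 and -4.35).

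**Figure D5:**
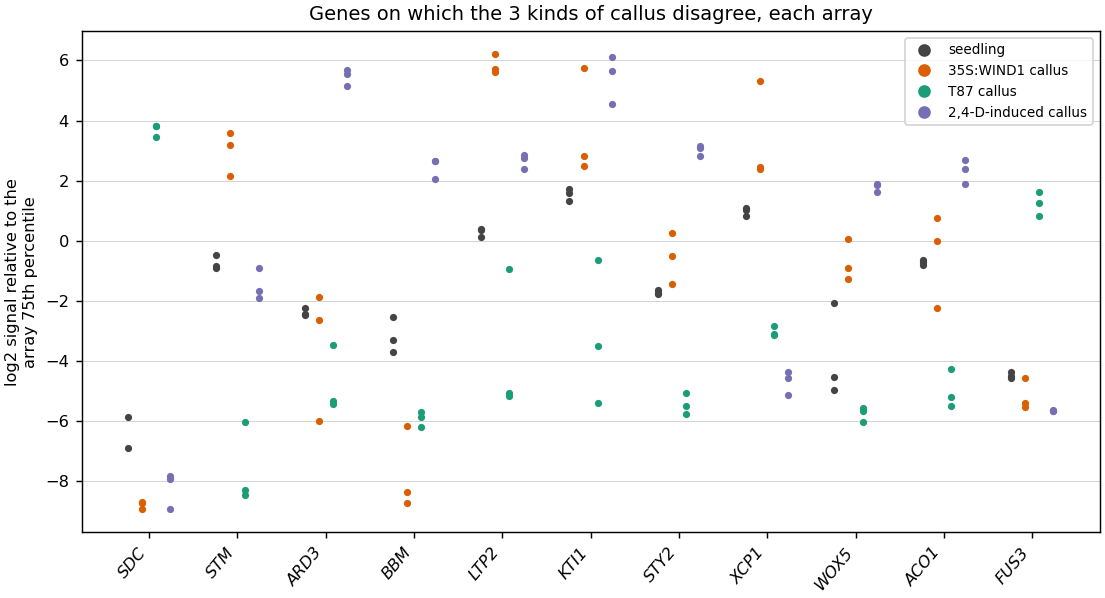
Each dot is the level on 1 array (log2 signal relative to the array 75th percentile) of 11 genes whose callus groups lie far apart, coloured by group. SDC and FUS3 stand out in T87 callus, BBM and ARD3 in 2,4-D-induced callus and STM in 35S:WIND1 callus.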

How the data were processed

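Per the labels, total RNA of 12 samples was labelled with Cy3 and each sample filled 1 one-colour Agilent array. The deposited scanner output gives, per the file headers, a linear intensity for every spot. Per the submitters' processing notes they came from Agilent Feature Extraction 9.1.3.1. The authors' deposited series table holds natural log (ln) values: set against the scanner intensities, a column equals the natural logarithm of processed signals less a constant that is the same for the arrays of a group, and single arrays were not scaled. Its column medians ran from -2.70 to -1.56, the reason for the constants stays unknown, and it served as an alternative.

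From the deposited processed signals, log2 levels were computed here and the 75th percentile of an array's own gene spots was subtracted. Controls and 25 to 218 outlier spots an array were left out, and 388 of the genes tested then lacked a value. A probe entered if at least 1 group had it well above background on each of its 3 arrays, and a gene's brightest probe stood for it. Of 458 genes with several probes, 4 had probes called in opposite directions. Locus codes were named through a reference table of assembly TAIR10.1. The number of arrays limits the precision.

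limma 3.58.1 (lmFit and eBayes, two-sided, R 4.3.3) fitted 4 group means with no block and the contrast of the callus mean minus seedlings. The SE is that of a log2 change. "At least N-fold" is the mean of the brighter side over a floor, for which every array gives whichever is higher, its lowest signal among probes well above background or what the gene itself read. It is 1 floor per array and applies to the callus groups or the seedlings without any array well above background. A callus group with only some arrays well above background kept all its levels. The fold of a fall that includes such a group is called estimated and is not a limit. The steps were tested on simulated data.

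The comparison, the 34 gene lists (954 members on the array, 17 names unmatched) and the rule for named genes were chosen with earlier results of these data known. The rule names WIND1, the 12 leading shared rises and falls, 3 genes per direction that are below background on 1 side, up to 2 shared members per list and direction, up to 2 members per list with opposite changes, and 5 genes each of widest and narrowest spread among calli. Outside the lists only genes with a symbol were ranked. The leading shared rises and falls also needed callus and seedling arrays that did not overlap. It gives 156 genes, of which the text names part, picked after their values were seen, and 2 genes are not reported here. No replicate pairing is stated. The slide is a batch per the headers, while deviations of same-numbered arrays correlated at -0.137 to 0.123. No sequence is printed, and a planned description of promoter letters was not run because no promoter table was at hand.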

Additional observations from a re-analysis of the deposited data

Results flagged for a closer look

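The 3 callus groups differed from each other by the moderated F-test for 16619 genes, and for 1571 genes that passed it 1 callus lay at least 2-fold above the seedlings while another lay at least 2-fold below. The seedling mean is common to the 3 changes and cancels in this test. What caused the differences was not tested.

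Of the genes named in the text, 11 were picked out because the F-test passed and their callus groups lay far apart. The range of the log2 change between callus groups was 12.47 for SDC, 10.56 for STM, 10.20 for ARD3 and also for BBM, 9.56 for LTP2 and 8.60 for KTI1, a trypsin inhibitor of defence. Of these genes SDC, STM and BBM, and FUS3 below, had callus arrays that were not well above background, so their ranges are not exact and carry no order. The range was 8.45 for STY2, a SHI/STY factor of auxin synthesis and style growth, 8.07 for XCP1, 7.53 for WOX5, 7.32 for ACO1, an ethylene-forming oxidase, and 6.89 for FUS3. The adjusted p of the F-test lay between 2.4e-08 for SDC and 0.00017 for KTI1. The highest callus was 2,4-D-induced callus for ARD3, BBM, KTI1, STY2, WOX5 and ACO1, 35S:WIND1 callus for STM, LTP2 and XCP1, and T87 callus for SDC and FUS3. Groups of 3 arrays are too small for the test of single outlying samples, so none was made.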

How the results depend on the processing

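The counts were recomputed under 26 other settings, of which 12 left out 1 array each. With normexp background correction 1411 genes were called higher and 2395 lower, 408 and 1396 were shared, and 9184 passed the F-test. Of the 8352 called and 3791 shared genes, 3764 and 1790 remained so. The planned normexp on mean spot signals was run on spot medians, the column the files hold, with an offset of 50 added. The part of the offset in these differences was not tested. With array median scaling 8525 genes were called higher and 3131 and 1817 were shared, and with quantile normalization 1576 shared rises were counted. Among the 16214 genes well above background on all 12 arrays 2416 were called lower and 1115 were shared falls, fewer genes being tested. With the spread among calli in the error 1809 were called higher and 3169 lower. A test against a 2-fold change (treat) called 1455 higher. Leaving out 35S:WIND1 callus gave 1907 shared rises. Leaving out T87 callus gave 1596 shared rises and 10591 genes by the F-test. Fewer groups then had to meet the rule.

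With the slide, which is the replicate number, as a replicate block, 3251 genes were called higher and 5078 lower, 1029 and 2765 were shared and 16355 passed the F-test. It changed no call of a gene named in the text. Leaving out each array gave 3046 to 3354 genes called higher, 4855 to 5181 lower, 981 to 1085 shared rises, 2684 to 2820 shared falls and 15516 to 16986 by the F-test. The estimate of array weights did not converge.

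Leaving out a kind of callus turned the sign of the mean change of 9 genes named in the text. BBM was called at 1.45 without 35S:WIND1 callus, and STY2 at -1.29 without 2,4-D-induced callus. Without T87 callus STM, SDC and ACO1 were called, at 1.48, -2.11 and 1.64. FUS3, called in the main fit, was at -0.93 without T87 callus, under 2-fold and not called. LTP2, ARD3 and KTI1 were called neither in these fits nor in the main fit. LTP2 was at -0.82 without 35S:WIND1 callus and ARD3 at -1.75 without 2,4-D-induced callus. KTI1 was at -0.42 and -1.29 without the one and the other. BBM was also above 0, at 0.54, without T87 callus. With normexp correction the calls of 7 named genes ended. These were ELI3-2, PORA, STM, XCP1, WOX5, FUS3 and SDC. The cause was not tested, and background correction and its offset cannot be told apart here. In the test against a 2-fold change STM, WOX5, DGAT1 and FUS3 were not called. With the deposited values the calls of STM and SDC ended, at changes of -1.2 and 0.01. Signals near background set the limit: values there are bounds, estimates or log2 changes that are not exact, and 388 genes lacked a value on some array.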
